A study of Homo sapiens with 2 samples.

Results

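Cyclins are regulatory subunits that switch on cyclin-dependent kinases (CDKs), and the genes described here are the cyclins, the CDKs, their inhibitors and the kinases and phosphatases that set CDK activity in KYSE30-Luc-GFP cells sorted by CD44. They were taken from the gene table by symbol: every protein-coding gene named as a cyclin (CCN and a letter), a numbered CDK, CDKN1B, CDKN1C, CDKN2A to CDKN2D, CDKN3, CDC25A to CDC25C, WEE1, PKMYT1, CKS1B or CKS2. The rule used no measured value and found 60 genes, of 60725 genes and 19844 protein-coding genes listed. KYSE30 is an established human esophageal squamous cell carcinoma line, here with a luciferase and a GFP reporter. Cultured cells were stained for CD44, a hyaluronan receptor at the cell surface, and sorted by flow cytometry into the 10% with the most staining (CD44 high) and the 10% with the least (CD44 low). Poly(A) RNA of each fraction gave 1 sequencing library, so both groups share the line, its reporters and the culture, and differ by the gate. With 1 library per group no test could be run and no replicate error is known.

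The cycle is driven by changing pairs of these proteins. D-type cyclins with CDK4 or CDK6 act in G1 and start the phosphorylation of the retinoblastoma protein, cyclin E and then cyclin A with CDK2 act at the start of and through S phase, and cyclin B with CDK1 drives mitosis. INK4 proteins (the CDKN2 genes) bind CDK4 and CDK6, while the CIP/KIP proteins (the CDKN1 genes) bind cyclin-CDK complexes. WEE1 and PKMYT1 hold CDK1 inactive by phosphorylation and the CDC25 phosphatases remove those marks, and a further set of cyclins and CDKs works in transcription and splicing. In esophageal squamous carcinoma CCND1 is often amplified and CDKN2A is often lost, given here as background and not as a result.

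Values are expected counts, the read counts that RSEM assigns to a gene, and TPM, which are corrected for length and are used here for any comparison of levels between genes. The libraries held 21633236 (CD44 high) and 22859583 (CD44 low) expected counts, with size factors of 0.999453 and 1.000547, so that a ratio of counts is close to the scaled ratio. CD44 itself (chr11:35138870-35232402) had 22819 counts in CD44 high and 9727 in CD44 low, 2.35-fold higher, in the direction of the sort. KRT8, KRT18, EPCAM, CDH1 and TP63 were well expressed, the lowest being TP63 with 2551 and 5287 counts, whereas the basal keratin KRT5 was near 0 (0 and 8 counts) and KRT14 was low (28.38 and 81.85 counts). PTPRC, PECAM1 and COL1A2, markers of leukocytes, endothelium and fibroblasts, had at most 1 count in a library, and COL1A1 had 175 and 292. The mitochondrial genome gave 7.50% of all counts in CD44 high and 14% in CD44 low. The part of this difference in the ratios below was not tested, and a scaling without those genes is among the settings shown. In bulk RNA, a larger share of cells in a phase of the cycle and more transcript per cell cannot be told apart.

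The 4 genes given as markers of the list were all detected. CCND1 had 10821 counts (180.51 TPM) in CD44 high and 9209 (138.16 TPM) in CD44 low. CDK1 had 5685 (229.44 TPM) and 3364 (122.01 TPM), and CCNB1 had 8077 (436.38 TPM) and 5634 (254.08 TPM). CCNE1 was much the lowest, with 280 counts (12.69 TPM) and 325 counts (12.91 TPM). CCND1, CCNB1 and CDK1 were higher in the CD44 high library, and CCNE1 was not.

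Of the 60 genes, 53 had at least 50 expected counts in a library and were tested for size, meaning that the log2 of their CD44 high to CD44 low ratio was computed with a 95% interval that covers counting error only. At least 2-fold, with an interval excluding equality, 2 were higher (CDK3 and CDKN2C) and 1 was lower (CDK20), against 1.24% of the 12371 genes tested in all that were so much higher and 4.2% that were so much lower. At 1.5-fold, 5 were higher (CDK3, CDKN2C, CDKN2D, CCNF and CDK1), which is 9.43% of the 53, against 4.93% of all genes, and 1 was lower (CDK20), against 10.4%. Most differences were smaller. Beyond counting error in any size, 27 were higher, 50.9% against 32.4% of all genes, and 12 were lower, 22.6% against 31.0%. The median log2 ratio was 0.16, against 0.01 over all genes, where the middle of the distribution ran from −0.25 to 0.23 (quartiles).

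The medians differed between the groups by phase and role. The median log2 ratio was 0.52 over the 11 tested G2/M genes, 0.36 over 6 genes of G1/S and S phase and 0.23 over 9 G1 genes. It was 0.01 over 16 genes of transcription and splicing and −0.19 over 11 other genes. The G1/S and S median includes CDK3, whose ratio was not kept when its readthrough gene was added, as described below. With genes of whole counts only, which leaves CDK3 out, the G1/S and S median was 0.315. That was still above the G1 median of 0.23 in the same setting. The median with CDK3 and its readthrough gene summed was not computed, so the place of this group relative to G1 in that case is not known. Without a minimum of counts the order turned, at 0.315 against 0.33 for G1. Beyond counting error, 10 G2/M genes were higher (90.9%, against 32.4% of all genes) and 1 lower (9.09%, against 31.0%). In transcription and splicing 5 were higher (31.2%) and 4 lower (25%), beside the same shares of all genes. Together the G2/M genes took 56.5% of the TPM of all 60 genes in CD44 high and 49.8% in CD44 low.

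**Figure D1:**
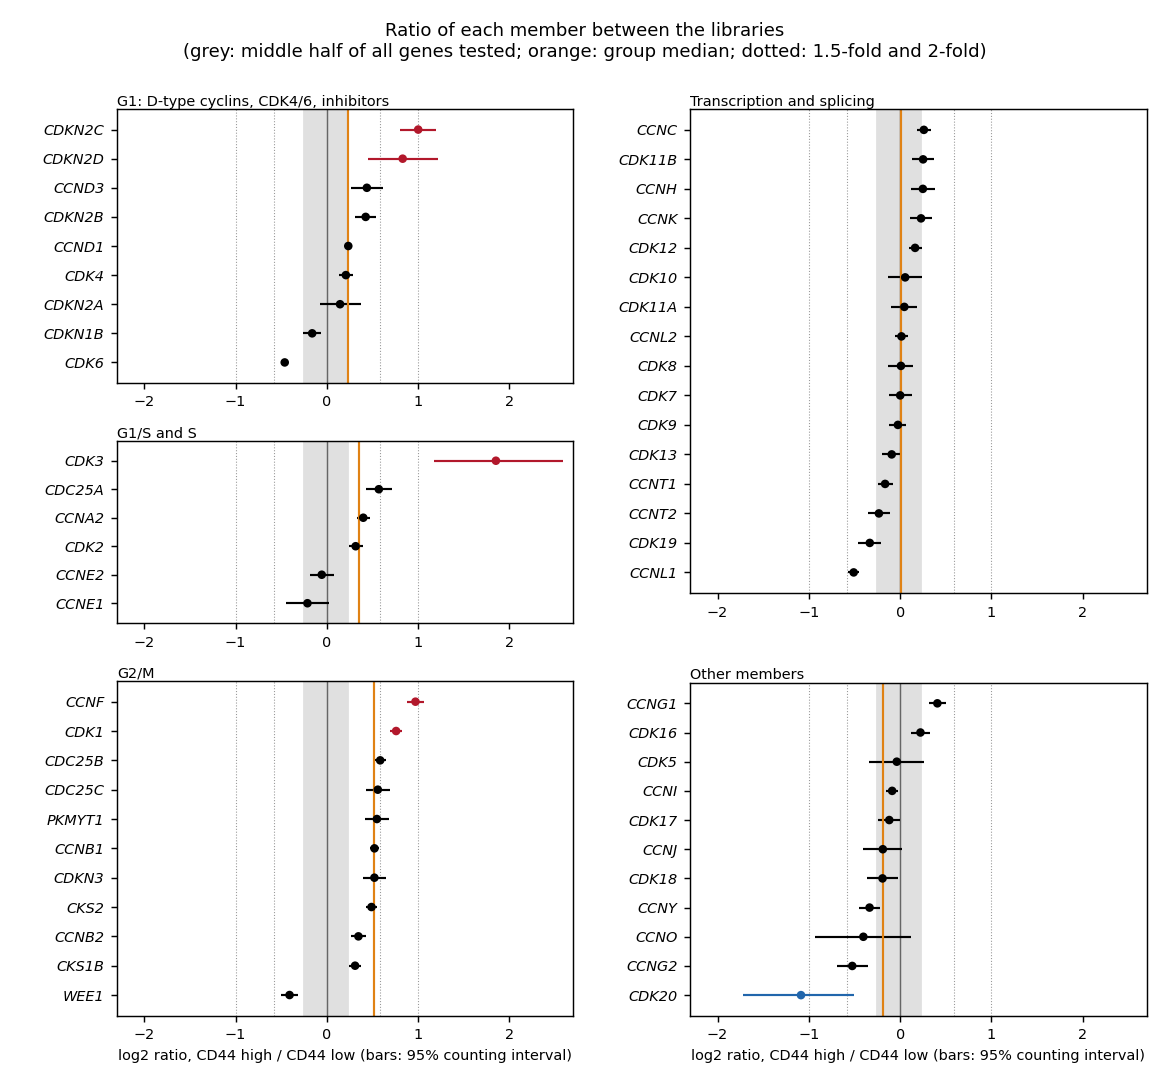
Log2 of the CD44 high to CD44 low ratio (x axis) for each of the 53 tested genes, by group, with bars for the 95% counting interval. The grey band spans the quartiles of all 12371 genes tested, orange lines are group medians and dotted lines mark 1.5-fold and 2-fold; red points are called higher and blue lower at 1.5-fold. All G2/M genes but WEE1 lie to the right of the grey band, while the transcription and splicing genes lie around 0.

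The scaling of the libraries moved the number of calls. The count of genes at least 1.5-fold higher was 5 with size factors, 8 with TMM factors, 11 with total counts and 13 with TPM, and the 1 lower gene remained 1 in each of these. All genes shifted too: their median was 0.04 with TMM factors, 0.09 with total counts and 0.15 with TPM, and the share of higher genes among all 1.5-fold calls went from 32.1% to 37.6%, 46.1% and 61.7%. A scaling of whole libraries shifts all genes alike, so the G2/M median less the all-gene median is 0.51 under each of them by construction. On TPM, which also weights length, it was 0.55, and with a trend on effective length removed it was 0.45. In that last setting the log2 ratios of CKS2 and CKS1B were 0.34 and 0.18, against 0.49 and 0.31 with size factors. Of the 39 genes beyond counting error, 37 had the same sign under all 6 scalings and length settings tried, and the exceptions were CCNI and CDK18.

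**Figure D2:**
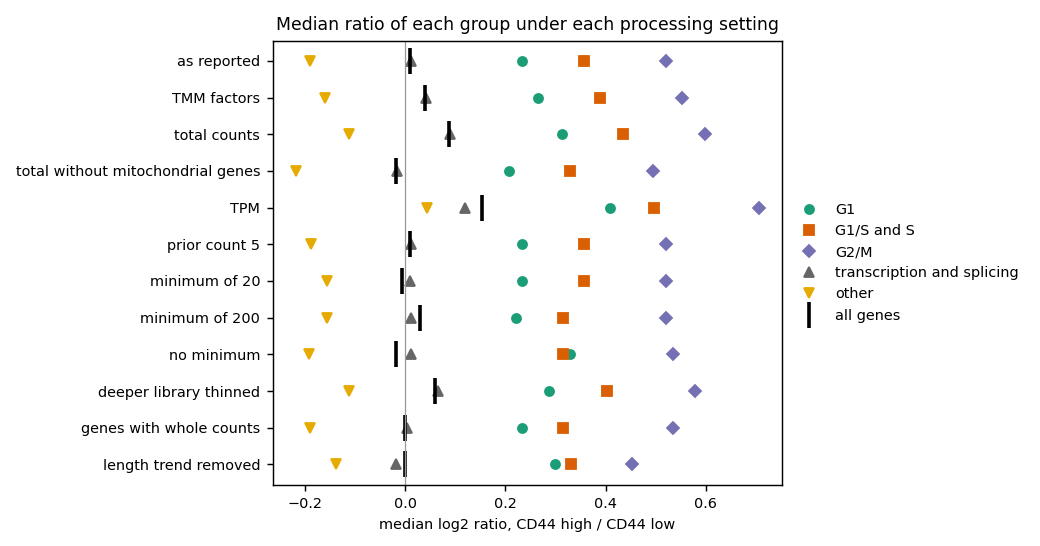
Median log2 ratio of each group (x axis) under 12 processing settings (rows); markers are the groups and the black bar is the median of all genes tested. The G2/M median ran from 0.45 to 0.71 and the bar for all genes from −0.02 to 0.15; size factors, TMM factors and total counts shift all markers by the same amount.

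In G1, the D-type cyclins were higher in CD44 high and the kinases they bind went in opposite directions. CCND1 (chr11:69641087-69654474), with 10821 and 9209 counts, was slightly higher (log2 0.23, interval 0.19 to 0.27) and made up 88.3% of the TPM of the D-type cyclins in CD44 high and 89.1% in CD44 low. CCND3 (chr6:41934933-42050357) had 647 and 478 counts, a log2 ratio of 0.44 (0.27 to 0.61). CCND2 was not counted in either library, so the cyclin D transcripts detected were those of CCND1 with a small share of CCND3. CDK4 (chr12:57747727-57756013), with 2865 counts (145.19 TPM) and 2483 counts (112.63 TPM), was slightly higher (log2 0.21, 0.13 to 0.29). CDK6 (chr7:92604921-92836594), with 9986 counts (60.76 TPM) and 13772 counts (74.15 TPM), was 1.38-fold lower (log2 −0.46, −0.50 to −0.42). The TPM of both kinases together was 205.95 in CD44 high and 186.78 in CD44 low, while CDK4 went from 1.52 times the TPM of CDK6 in CD44 low to 2.39 times in CD44 high.

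The inhibitors were compared by family. All 4 INK4 genes had positive log2 ratios, 3 of them beyond counting error. CDKN2C, which encodes p18INK4c (chr1:50960745-50974633), had 638 counts in CD44 high and 319 in CD44 low, 24.21 and 11.43 TPM, and was 2.0-fold higher (1.75 to 2.30), at the 2-fold threshold itself. CDKN2D, which encodes p19INK4d (chr19:10566462-10569059), had 162 and 91 counts and was 1.78-fold higher (1.37 to 2.33). CDKN2B, which encodes p15INK4b (chr9:22002903-22009363), had 1384 and 1032 counts (log2 0.42, 0.31 to 0.54). CDKN2A (chr9:21967753-21995301) was detected, with 350 and 317 counts, and its interval included equality (log2 0.14, −0.08 to 0.37). The INK4 genes summed to 98.69 TPM in CD44 high and 63.72 in CD44 low, or 47.9 and 34.1 TPM for each 100 TPM of CDK4 and CDK6.

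The CIP/KIP genes did not all share that direction. CDKN1B, which encodes p27, had 1536 and 1720 counts and was lower by little (log2 −0.16, −0.26 to −0.06). CDKN1C, which encodes p57, had 19 and 13 counts, under the minimum, and a positive log2 ratio whose interval included equality (0.53, −0.54 to 1.69). CDKN1A, which encodes p21 and lies outside the symbol rule, had 1037 counts in CD44 high and 1609 in CD44 low and was 1.55-fold lower (1.43 to 1.68). Beyond counting error, 3 of the 4 INK4 genes were thus higher, and CDKN1B and CDKN1A were lower, in the CD44 high library. Of all genes, 32.4% were higher and 31.0% lower in this way, and these families are too small to be set against those shares. CDKN1B lay between the quartiles of all genes (−0.25 and 0.23), and its log2 ratio was −0.02 on TPM.

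Of the CDKN2A transcripts, the one for p16INK4a (CDKN2A-201) took 19.4% of the TPM of the gene in CD44 high and 14.6% in CD44 low, and the one for p14ARF (CDKN2A-214), read in another frame, took 27.1% and 24.1%. The transcript with the largest share was CDKN2A-212, with 42.9% and 48.7%. These shares are RSEM model estimates over few counts.

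At G1/S and in S phase both cyclin E genes had intervals that included equality, while their kinase was higher in CD44 high. CCNE1 (chr19:29811898-29824308) had 280 and 325 counts, a log2 ratio of −0.21 whose interval (−0.45 to 0.02) included equality. CCNE2 had 926 counts (28.14 TPM) and 964 counts (25.69 TPM), a log2 ratio of −0.06 (−0.19 to 0.08) that became positive on TPM. CDK2 (chr12:55966769-55972784), the kinase of cyclins E and A, had 2975 counts (108.65 TPM) and 2394 counts (79.24 TPM) and was higher (log2 0.31, 0.24 to 0.39). CCNA2 (chr4:121816444-121823933), which acts from S phase to early mitosis, had 3870 counts (98.43 TPM) and 2939 counts (67.31 TPM), a log2 ratio of 0.40 (0.33 to 0.47). CDC25A (chr3:48157146-48188402), the phosphatase that activates CDK2, had 968 and 653 counts and was 1.48-fold higher, just under the 1.5-fold threshold. The germ-line cyclin CCNA1 had 0 and 1 count.

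CDK3 (chr17:76000906-76005999) had the highest ratio of any tested gene of the list, and it did not stand on its own. It had 83.16 expected counts in CD44 high and 22.70 in CD44 low, 3.67-fold higher (2.25 to 6.01). The overlapping readthrough gene TEN1-CDK3 (chr17:75979231-76005999), which ends at the same base, also had fractional counts, 58.87 and 151.51, and was 2.57-fold lower. Summed, the 2 genes had 142.03 and 174.21 counts, a log2 ratio of −0.29 (−0.62 to 0.04). The CDK3 call was thus not kept when both genes were counted together, which leaves 4 genes of the list called higher at 1.5-fold.

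The G2/M genes had the highest levels of the list. CKS2 and CKS1B, small subunits that bind CDKs, had the most TPM: 862.98 in CD44 high and 558.67 in CD44 low for CKS2 (5424 and 3870 counts, log2 0.49), and 474.62 and 348.92 for CKS1B (4196.67 and 3391.68 counts, log2 0.31). CCNB1 (chr5:69167010-69178245), with 8077 and 5634 counts, was 1.44-fold higher (1.39 to 1.49). CDK1 (chr10:60778331-60794852), its kinase, with 5685 and 3364 counts, was 1.69-fold higher (1.62 to 1.77). CCNB2, the other mitotic B-type cyclin, had 2848 and 2244 counts (log2 0.35, 0.27 to 0.43). The widest difference was in CCNF (chr16:2429394-2458854), an F-box protein that does not activate a CDK and instead selects proteins for destruction, with 3054 counts (50.13 TPM) in CD44 high and 1560 counts (23.16 TPM) in CD44 low, 1.96-fold higher (1.84 to 2.08).

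The enzymes that act on the inhibitory phosphates of CDK1 were split. The phosphatases CDC25B (5372 and 3588 counts) and CDC25C (1159 and 788 counts) were 1.499-fold and 1.47-fold higher, CDC25B on the edge of the 1.5-fold threshold. Of the opposing kinases, PKMYT1, a membrane-bound kinase, was also higher, with 1230 and 842 counts (log2 0.55, 0.42 to 0.68). WEE1 (chr11:9573681-9593457), the nuclear one, was the only G2/M gene to be lower, with 1523 counts (38.58 TPM) in CD44 high and 2025 counts (55.15 TPM) in CD44 low (log2 −0.41, −0.51 to −0.31). CDKN3, a phosphatase that acts on CDKs, had 1317 and 919 counts (log2 0.52, 0.40 to 0.64). CCNB3, a meiotic cyclin, had 16 and 8 counts.

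A part of the WEE1 difference lay in a transcript with a retained intron, WEE1-208, at 0 TPM in CD44 high and 9.24 TPM in CD44 low. The transcripts of WEE1 annotated as protein coding summed to 1278.17 and 1631.85 counts, and their log2 ratio of −0.35 (−0.46 to −0.24) kept the direction.

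**Figure D3:**
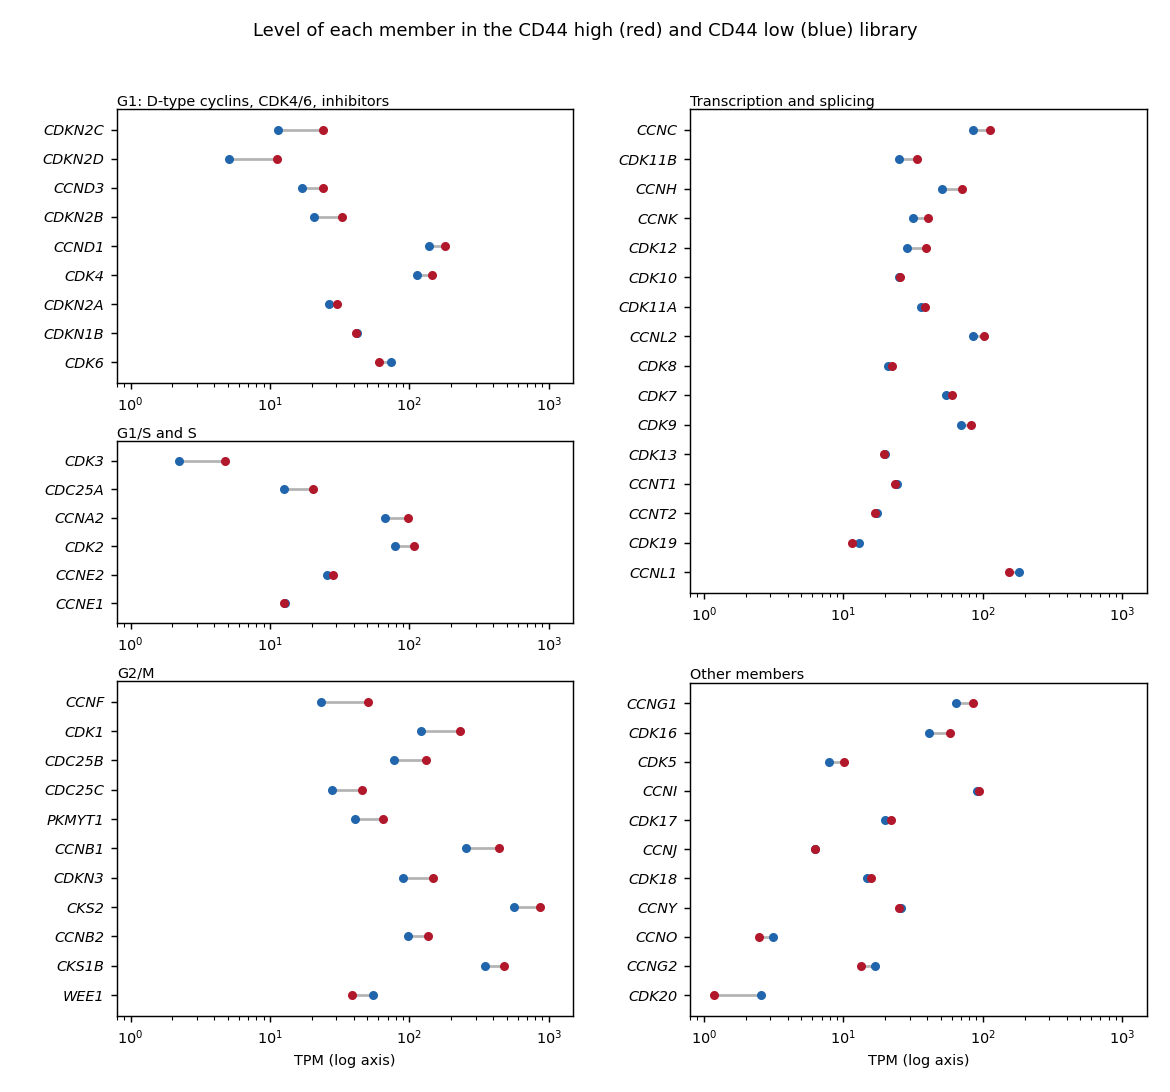
TPM of each of the 53 tested genes in the CD44 high (red) and CD44 low (blue) libraries (x axis, log scale), by group, 1 point per library. The G2/M genes reached the highest levels, up to 862.98 TPM for CKS2, and in that group the CD44 high point lies to the right of the CD44 low point for every tested gene except WEE1.

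The promoters of the G2/M genes are shown because genes of this phase are known to share short elements near the start site. These are the CHR element, which binds the DREAM and MYB-MuvB complexes, CCAAT boxes, which bind NF-Y, and E2F sites. RefSeq promoters of GRCh38.p14, from 250 bases before to 50 after a start site, were matched by symbol for 53 of the 60 genes. Only 1 entry was kept per symbol, and it was not chosen by the transcripts measured here. CCND1, CCND2, CDKN1C, CCNE2, CDK2, PKMYT1 and WEE1 had no entry. The CHR was searched on both strands as the letters TTTGAA and, as a variant, the letters TTCGAA, and the CCAAT box was searched in the same way. An E2F match was the letters TTCCCGC, with the variant spellings TTGGCGC and also TTCGCGC and, last, the spelling TTGCCGC, again on both strands. Matches overlapped in CDC25A (E2F with E2F), in CCNJ (CCAAT with CCAAT) and in CDK11B (E2F with a CCAAT box). Capitals mark these matches below, on either strand, so that the capitals TTCAAA show a CHR of the opposite strand and the capitals ATTGG show the CCAAT box of that strand. All windows are on the plus strand and end 1 base before the start site. CCNB2 (chr15:59105016-59105145), CKS2 (chr9:89311045-89311194) and CKS1B (chr1:154974541-154974680) have CCAAT boxes upstream of a CHR close to the start site. CCNB1 (chr5:69167010-69167149) and CDK1 (chr10:60778166-60778330) are given markers, CCNF (chr16:2429337-2429446) had the largest G2/M ratio, and CDKN2C (chr1:50960635-50960744), the INK4 gene called at 2-fold, holds none of the letters.
CCNB2: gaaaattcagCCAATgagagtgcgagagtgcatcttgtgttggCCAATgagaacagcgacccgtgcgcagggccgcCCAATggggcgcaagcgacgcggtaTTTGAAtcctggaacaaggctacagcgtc
CKS2: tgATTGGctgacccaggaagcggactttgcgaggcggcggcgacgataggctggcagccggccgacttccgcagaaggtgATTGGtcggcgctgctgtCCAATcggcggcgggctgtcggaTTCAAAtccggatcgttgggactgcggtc
CKS1B: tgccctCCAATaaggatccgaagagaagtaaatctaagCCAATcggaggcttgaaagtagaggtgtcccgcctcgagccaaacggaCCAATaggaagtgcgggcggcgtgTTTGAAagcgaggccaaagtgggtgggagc
CCNB1: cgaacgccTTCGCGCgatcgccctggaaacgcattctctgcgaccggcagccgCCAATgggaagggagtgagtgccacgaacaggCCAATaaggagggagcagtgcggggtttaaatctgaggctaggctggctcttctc
CDK1: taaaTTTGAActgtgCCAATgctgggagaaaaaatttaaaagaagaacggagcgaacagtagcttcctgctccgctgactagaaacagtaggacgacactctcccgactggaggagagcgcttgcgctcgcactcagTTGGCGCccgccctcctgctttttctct
CCNF: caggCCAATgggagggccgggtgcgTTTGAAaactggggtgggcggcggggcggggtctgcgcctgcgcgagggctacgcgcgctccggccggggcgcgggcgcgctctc
CDKN2C: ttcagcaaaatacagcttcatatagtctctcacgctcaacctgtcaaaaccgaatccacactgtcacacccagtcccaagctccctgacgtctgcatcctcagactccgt

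In the whole windows, 6 of the 10 matched G2/M promoters held a CHR, 7 a CCAAT and 4 an E2F match, against 16.6%, 35.7% and 13.1% of all 27305 promoters in the table. None of the 8 matched G1 promoters held a CHR or an E2F match and 2 held a CCAAT. Of 5 promoters of G1/S and S phase genes none held a CHR, 2 held a CCAAT and 1, that of CDC25A, held an E2F match. Among 16 transcription and splicing promoters the counts were 2, 7 and 4, and among 14 promoters of the other genes 0, 5 and 2. Over all 53 matched promoters the shares were 15.1% (CHR), 43.4% (CCAAT) and 20.8% (E2F). Counted from the start site as 0, the CHR began at −29 in CCNB2, −29 in CKS2 and −30 in CKS1B. In CDK1 it began at −161, in CDKN3 at −170, and in CCNF at −85 and −233. The CCNB1 window held 2 CCAAT boxes and an E2F match and none of the CHR letters searched. A match of letters is a description of the sequence, binding was not measured, and a link between matches and ratios was not tested.

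**Figure D4:**
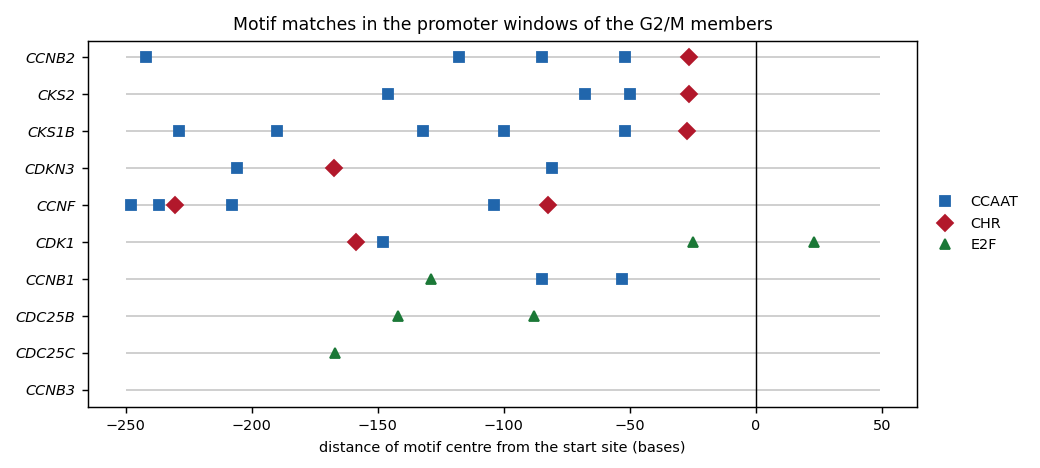
Positions of motif matches in the promoter windows of the 10 matched G2/M genes, as the distance of the motif centre from the RefSeq start site in bases (x axis, 0 is the start site). CCAAT matches lie mostly within the last 150 bases before the start site, and the CHR matches of CCNB2, CKS2 and CKS1B lie next to it.

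The balance of 2 genes within a library does not depend on how whole libraries are scaled, but it can depend on how length is treated. For 14 pairs, chosen after the values had been seen, the ratio of counts in CD44 high was divided by that in CD44 low. The ratio of CDKN2C to its target CDK6 was 2.76-fold higher in CD44 high (2.41 to 3.16). CDK1 to WEE1 was 2.25-fold higher (2.08 to 2.43), with 5.95 TPM of CDK1 for each TPM of WEE1 in CD44 high and 2.21 in CD44 low. CDC25B to WEE1 was 1.99-fold higher (1.84 to 2.15) and CDK4 to CDK6 1.59-fold (1.5 to 1.69). These 4 pairs join genes with opposed actions or, for CDK4 and CDK6, kinases that bind the same cyclins. From TPM in place of counts, the changes were 2.58-fold (CDKN2C to CDK6), 2.69-fold (CDK1 to WEE1), 2.43-fold (CDC25B to WEE1) and 1.57-fold (CDK4 to CDK6). With a trend on effective length removed, the log2 ratio of CDK6 was −0.25, against −0.46, and pairs were not computed in that setting. CCNF to CCNB1 was 1.37-fold higher (1.27 to 1.46), so that these G2/M genes differed in the size of their ratios, and CDK1 to CDK2 was 1.36-fold higher. CCNB1 to CCNB2 and CKS2 to CKS1B were both 1.13-fold higher. CCNE1 to CCNE2 was 0.897 times as high, with an interval (0.747 to 1.08) that included equality, and CCND1 to CCND3 was 0.868 times as high (0.769 to 0.98).

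**Figure D5:**
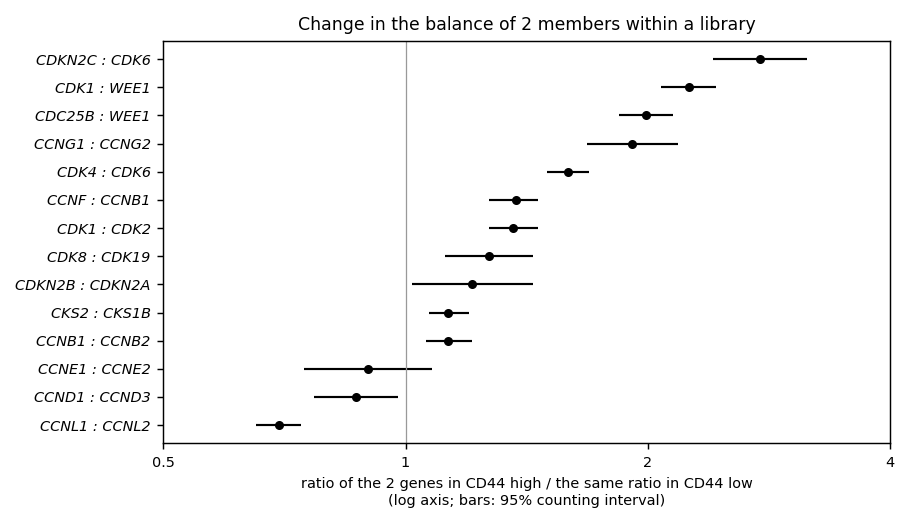
Ratio of 2 genes in CD44 high divided by the same ratio in CD44 low (log axis), for 14 pairs, with bars for the 95% counting interval; 1 means no change of balance. CDKN2C to CDK6 and CDK1 to WEE1 lie farthest right, at 2.76 and 2.25, and CCNL1 to CCNL2 lies farthest left, at 0.696.

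None of the 16 genes of transcription and splicing was called at 1.5-fold. Of all genes, 4.93% were so much higher and 10.4% so much lower, so few calls would be looked for among 16. The kinases CDK7, CDK8, CDK9, CDK10, CDK11A and CDK13 and the cyclin CCNL2 had intervals that included equality. CDK7, the kinase of TFIIH, had 1028 and 1029 counts, and CDK9, the kinase of the elongation factor P-TEFb, had 1813 and 1847. The cyclins of CDK9, CCNT1 (2266 and 2544 counts, log2 −0.17) and CCNT2 (1080 and 1271 counts, log2 −0.23), were slightly lower. CCNC (chr6:99542380-99568973), the cyclin of the Mediator kinases, had 3255 counts (113.63 TPM) and 2722 counts (85.16 TPM) and was slightly higher (log2 0.26, 0.19 to 0.33). Its paralogous kinases differed, CDK8 at 881 and 877 counts and CDK19 at 918 and 1158 counts (log2 −0.33, −0.46 to −0.21), and the ratio of CDK8 to CDK19 was 1.27-fold higher in CD44 high (1.12 to 1.44). CCNH, the cyclin of CDK7 (979 and 825 counts), CCNK, the cyclin of CDK12 and CDK13 (1223 and 1045), CDK12 itself (3311 and 2960) and CDK11B (1223.40 and 1029.18) were higher, with log2 ratios from 0.16 to 0.25. CDK11A and CDK11B are near-identical copies with fractional counts, and the division between them is uncertain.

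CCNL1 (chr3:157146508-157160760), a cyclin of the splicing kinases CDK11A and CDK11B, had the most TPM of this group and the lowest ratio. It had 4138 counts (154.86 TPM) in CD44 high and 5899 counts (182.30 TPM) in CD44 low, a log2 ratio of −0.51 (−0.57 to −0.45). Its paralog CCNL2 (chr1:1385711-1399328) had 3016 counts (101.73 TPM) and 2991 counts (85.64 TPM). Little of the CCNL1 signal came from coding transcripts: those annotated with a retained intron took 90.7% of its TPM in CD44 high and 93.5% in CD44 low, and coding transcripts 4.8% and 2.9%. The coding transcripts alone, looked at after these shares were seen, had 244.96 and 196.38 counts and a log2 ratio of 0.32 (0.05 to 0.60), opposite to that of the gene. That interval leaves out the error of how RSEM divided reads among transcripts. CCNL1 was the only one of the 48 genes with at least 200 counts in both libraries whose retained intron transcripts exceeded 50% of TPM in both; it was also the only one beyond counting error as a gene whose coding transcripts lay beyond counting error in the other direction. Over these 48 genes the coding transcripts took a median of 88.8% of TPM in CD44 high and 89.2% in CD44 low.

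The remaining genes have roles outside the core cycle, and beyond counting error 5 of the 11 tested were lower (45.5%, against 31.0% of all genes) and 2 higher (18.2%, against 32.4%). The pair of cyclin G genes went opposite ways. CCNG1 (chr5:163437569-163446151), a target of p53, had 2353 counts (85.85 TPM) and 1776 counts (64.01 TPM) and was higher (log2 0.41, 0.32 to 0.50). CCNG2, a cyclin known from cells leaving the cycle, had 487 and 702 counts and was 1.44-fold lower, so that CCNG1 to CCNG2 was 1.91-fold higher in CD44 high (1.68 to 2.18). CDK16 (chrX:47217860-47229997), a kinase that cyclin Y activates, had 1651 counts (58.57 TPM) and 1417 counts (41.41 TPM), a log2 ratio of 0.22 (0.12 to 0.33). CCNI (chr4:77047158-77076005) had 3435 counts (94.33 TPM) and 3656 counts (91.48 TPM), a log2 ratio of −0.09 that became positive on TPM. CCNY, a membrane-bound cyclin, was lower, with 1089 and 1376 counts (log2 −0.34, −0.45 to −0.22), and CDK18 had 517 and 592 counts (log2 −0.19), positive on TPM. For CCNJ, CCNO, CDK5 and CDK17 the interval included equality.

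CDK20 (chr9:87966441-87974753), the only gene called lower, had 35 counts in CD44 high and 75 in CD44 low, 2.14-fold lower (1.42 to 3.30), at 1.19 and 2.56 TPM. Its coding transcripts had 32.81 and 33.88 counts, so that the difference lay in transcripts not annotated as coding. Among the 48 genes with at least 200 counts in both libraries, CCNG1 was the only one with a transcript share that differed by at least 20 percentage points. CCNG1-201 took 75.2% of its TPM in CD44 high and 49.3% in CD44 low, and the transcript ENST00000393929.5 took 0% and 15.6%, with 0 and 363.61 counts. The transcripts of CCNG1 annotated as coding had a log2 ratio of 0.88 (0.78 to 0.98), against 0.41 for the gene. That sum leaves out ENST00000393929.5, which had no entry in GENCODE v44 and so no class. Whether the coding transcripts differed more than the gene is therefore not known.

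The 7 genes under 50 counts in both libraries were CCND2 (0 and 0 counts), CDKN1C (19 and 13), CCNA1 (0 and 1), CCNB3 (16 and 8), CCNI2 (2 and 5), CDK14 (5 and 7) and CDK15 (24 and 2). With 0 counts, up to 3 counts per library cannot be told from none. Their differences were not counted, and of them CDK15 had an interval that excluded equality.

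The other genes of the pathway also had mostly small ratios. Beside them, 4.93% of all genes were at least 1.5-fold higher and 10.4% at least 1.5-fold lower. Of 20 pocket protein, E2F and DREAM genes, which hold back or drive cycle transcription, 1 (5.0%, against 4.93% of all genes) was at least 1.5-fold higher and none lower, with a median log2 ratio of 0.25. That gene was E2F8, an E2F repressor made in S phase, with 697 and 336 counts, 2.08-fold higher. FOXM1, the activator of G2/M genes, had 4455 and 3271 counts (log2 0.45), MYBL2 had 3862 and 2954 (log2 0.39), and RBL2, the pocket protein p130 of quiescent cells, had 2447 and 3522 (log2 −0.52). Of 28 genes that carry out or control the destruction of cyclins and inhibitors, 3 (10.7%, against the same 4.93%) were at least 1.5-fold higher and none lower (median 0.18). All 3 act in or on the anaphase-promoting complex: UBE2C (3191 and 1382 counts, 2.31-fold), UBE2S (9261.08 and 5380.79, 1.72-fold, with fractional counts) and CDC20 (7962 and 4967, 1.60-fold). Of 11 checkpoint and mitotic entry genes, 3 (27.3%) were at least 1.5-fold higher and none lower (median 0.27): GTSE1 (1028 and 467, 2.20-fold), AURKA (3715.82 and 2112.87, 1.76-fold, also fractional) and PLK1 (5185 and 3123, 1.66-fold), the last 2 being kinases of the path to CDK1 activation.

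Partners of the transcriptional and atypical CDKs held no gene past 1.5-fold among the 9 tested, against 4.93% of all genes higher and 10.4% lower. Their median was −0.15. MED13 had 4614 and 5536 counts and HEXIM1, an inhibitor of CDK9, had 2826 and 2811. The proliferation markers were higher, by ratios within the range of the G2/M genes. MKI67 had 19463 and 14063 counts (1.39-fold), PCNA 5984 and 4828 (1.24-fold) and TOP2A 21493 and 14072 (1.53-fold). The list of cycle genes and these partners come from the same libraries, and their ratios are not separate measurements of the sort.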

How the data were processed

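RNA of 2 sorted fractions of KYSE30-Luc-GFP was measured, 1 library each, grouped by the CD44 fraction in the sample labels. The authors prepared poly(A) libraries with adapters carrying molecular identifiers, sequenced read pairs, demultiplexed with bcl2fastq, mapped reads to GRCh38 with STAR and quantified them with RSEM. The use of identifiers against duplicates and of strand in counting are not given in the sources, so overlapping antisense genes cannot be told apart. The deposited columns hold expected counts of RSEM divided by a size factor, and TPM of the authors for 60725 genes and 199348 transcripts. Columns of the authors' own comparison (fold changes, a regulation type, posterior probabilities and FDR) were not used.

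Deposited values were whole multiples of a step to within 1.23e-07, which gave back the expected counts before scaling. Log2 ratios were computed from the deposited expected counts, scaled by median-of-ratios size factors, with a prior of 0.5. Intervals of 95% are exact conditional binomial (Clopper-Pearson) on rounded counts, and Wald intervals of a log odds ratio for pairs. They cover counting error only. For transcripts and their sums, the error of how RSEM divided reads among transcripts is also left out. Calls were made at 2-fold and 1.5-fold, with an interval that leaves out equality, among genes reaching 50 expected counts. Expected counts were fractional for 4 of the 60 genes (CDK3, CKS1B, CDK11A and CDK11B).

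Genes were named with full values if they were given markers, were called at 1.5-fold, had 0 counts in a library, had a transcript shift (20 percentage points, 200 counts in both libraries), or were among the 3 with the most TPM in their group. From each partner list up to 4 genes with the largest ratio among those called, otherwise the 2 with the most counts, were named, and further genes were chosen after their values were seen. Members and lists were chosen with earlier results of these data known. Transcripts were named by GENCODE v44, in which 398 of the 407 above 0 had an entry. Coding transcripts are those that GENCODE v44 lists as protein coding, so transcripts without an entry are left out of them. Gene coordinates are those of the deposited table (GRCh38). Alternatives were TMM factors (edgeR 4.0.16), total counts with and without mitochondrially encoded genes, TPM (1 TPM in a library, log2 of TPM plus 1), a prior of 5, minimums of 20, 200 and none, thinning of the deeper library, genes with whole counts, and removal of a LOWESS trend on effective length. Added after seeing the data were coding transcripts alone and CDK3 summed with TEN1-CDK3. The ratio code was tested on simulated data. Python 3.11.15 with pandas 2.3.3 and scipy 1.17.1 was used.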

Additional observations from a re-analysis of the deposited data

How the results depend on the processing

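No paired analysis was possible because each group holds 1 library, and for the same reason no library could be left out. Counts of called genes depended on the scale and the minimum. Of the cyclin and CDK genes, the number at least 1.5-fold higher was 5 as reported, 8 with TMM factors, 11 with total counts, 13 with TPM, 9 with the deeper library thinned and 3 with a minimum of 200 counts. The number at least 2-fold higher went from 2 to 1 with total counts without mitochondrially encoded genes, a prior of 5, a minimum of 200 or whole counts only. It rose to 3 with TMM factors, total counts, TPM, a minimum of 20, no minimum or the deeper library thinned. The 1 gene at least 2-fold lower, CDK20, was lost with TPM, a prior of 5 and a minimum of 200 (0 genes each), and at 1.5-fold with a minimum of 200 (0 genes). Of all genes, those at least 2-fold higher numbered 153 as reported, 253 with TPM, 271, 63 and 445 with minimums of 20, 200 and none, and those at least 2-fold lower 520, 346, 828, 232 and 1229. At 1.5-fold, 610 higher genes became 1415 with TPM, 391 with a minimum of 200 and 931 with none, and 1292 lower genes became 691 and 2064 with those minimums. The share of higher genes among 2-fold calls was 22.7% as reported and 42.2% with TPM, and among 1.5-fold calls 32.1%, 46.1% with total counts and 61.7% with TPM.

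With TPM the median of all genes moved to 0.15, and the group medians to 0.41 (G1), 0.50 (G1/S and S), 0.71 (G2/M) and 0.044 (other, from −0.19). Without a minimum the G1 median was 0.33. Of 22 named genes, 14 were counted as moved with TPM, 11 with total counts and 6 with the length trend removed. With the deeper library thinned 4 were so counted, and with total counts without mitochondrially encoded genes 1. A gene not called at 1.5-fold was so counted if its log2 ratio changed sign or moved by more than the distance from the middle to the end of its interval. Genes called at 1.5-fold kept their call and were not counted as moved. Of these, CDK1 reached 0.91 with TPM and 0.84 with total counts, above its interval (0.70 to 0.82). No gene counted as moved that was beyond counting error turned its sign except CCNI. With coding transcripts alone, CCNL1 turned to 0.32 from −0.51 and CDK20 went to −0.04 from −1.09. CDK3 with its readthrough gene turned to −0.29 from 1.85. The causes were not tested. At this depth 7 of the 60 genes stayed under the minimum of 50 counts, and with 1 library per group the spread between sorts is unknown.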

Other observations

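CDK15 had 24 counts in CD44 high and 2 in CD44 low, a log2 ratio of 3.29 with an interval of 1.58 to 6.71, in a gene under the minimum of 50 counts. Its levels were 0.46 and 0.03 TPM. CCNO, a cyclin of multiciliated cells, had coding transcripts of 8.52 and 33.98 counts (log2 −1.93, −3.16 to −0.83). The gene as a whole had 55 and 73 counts, with an interval that included equality. The division of reads between its transcripts is an RSEM estimate, whose error is not in the interval of the coding transcripts.

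CCNE2 transcripts annotated as coding had 842.90 and 945.29 counts, a log2 ratio of −0.16 (−0.30 to −0.03), while that of the gene included equality. This sum leaves out ENST00000611101.1, with 75.53 counts in CD44 high and 0 in CD44 low, which had no entry in GENCODE v44. The contrast with the gene therefore depends on the annotation. CCNF coding transcripts had 2606.83 and 1282.40 counts, a log2 ratio of 1.02 (0.93 to 1.12), past 2-fold, where the gene stood at 0.97. The retained intron share of CDK16 was 9.4% in CD44 high and 19.4% in CD44 low, and that of WEE1 was 7.8% and 22.8%, whereas that of CDK17 was 10.9% and 3.4%, so that the list had no common direction in this share.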
